A study of Mus musculus with 9 samples.

Results

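The genes Tnfsf10, Fas, Casp8, Casp1, Casp4, Casp12, Ripk3, Mlkl and Xaf1 code for a death ligand, a death receptor, caspases, necroptosis proteins and a partner of an apoptosis inhibitor. They were taken by name from a table of 24186 genes, each name had 1 gene identifier, and all 9 passed the filter on low counts that left 15098 genes for testing. Poly(A) RNA had been sequenced from bone marrow stromal cells flushed from femora and tibiae of adult C57Bl/6 mice with the irtTA-GBD*-TAg transgene, which expresses large T antigen when dexamethasone and doxycycline are given. The 9 libraries form 3 groups of 3, numbered 4, 5 and 6 in each. Adipogenic progenitors were left untreated (A4, A5, A6) or received 10 ng/ml interferon-γ (IFNγ) for 3 days (A4G, A5G, A6G). Osteogenic progenitors (O4, O5, O6) had no IFNγ. All 9 libraries thus come from conditionally immortalised cells that carry the transgene and that had been kept without both inducers for 3 days. The cells had been cloned by limiting dilution or single-cell deposition, and the labels do not say whether a number stands for a clone, a culture or an animal. The p values therefore measure the spread between these samples, which may be technical.

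Cells die in several regulated ways in which these genes take part. In the extrinsic apoptosis pathway a ligand such as TRAIL (Tnfsf10) or Fas ligand binds its receptor, and the adaptor FADD recruits caspase-8, an initiator that activates further caspases. Where caspase-8 is not active, RIPK1, ZBP1 or another partner can activate the kinase RIPK3, which phosphorylates MLKL, and MLKL then permeabilises the plasma membrane in necroptosis. Inflammatory caspases, caspase-1 in inflammasomes and the mouse caspase-4 (also called caspase-11) as a sensor of cytosolic lipopolysaccharide, cleave gasdermin D in pyroptosis, and IFNγ is known to induce several genes of these pathways in many cell types.

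The promoter sequences show where letters of 2 interferon-response motifs, GAS and ISRE, stand or do not stand before genes that differed in their response to IFNγ. RefSeq windows (GRCm38.p6) of 250 bases before the annotated start matched 9 of 9 genes by symbol, in 10 windows since Casp4 had 2 annotated starts. Both strands were searched for TTCNNNGAA, the letters of a GAS element, and for GAAA repeated after any 2 bases, those of an ISRE. The GAS letters were in Casp12 at 2 places and in Fas at 1, and the ISRE letters were in none of the 10 windows. Of 32851 such windows in the same table, 7.02% held the GAS letters, 2.98% the ISRE letters and 9.66% either. Each sequence runs 5′ to 3′ on the gene's own strand and ends at the base before the start, with a match in capitals. Casp12 and Fas are shown because they held a match, with chr9:5345226-5345475 (+) and chr19:34290409-34290658 (+) as their places. Tnfsf10 (chr3:27316827-27317076, +) and Mlkl (chr8:111338206-111338455, −) are shown because their RNA rose with the treatment and their windows held neither motif in the letters searched.
Casp12: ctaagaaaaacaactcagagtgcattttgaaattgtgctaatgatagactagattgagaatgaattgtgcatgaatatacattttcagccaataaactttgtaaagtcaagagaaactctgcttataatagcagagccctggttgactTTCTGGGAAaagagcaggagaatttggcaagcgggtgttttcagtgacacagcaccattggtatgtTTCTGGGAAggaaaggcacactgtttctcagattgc
Fas: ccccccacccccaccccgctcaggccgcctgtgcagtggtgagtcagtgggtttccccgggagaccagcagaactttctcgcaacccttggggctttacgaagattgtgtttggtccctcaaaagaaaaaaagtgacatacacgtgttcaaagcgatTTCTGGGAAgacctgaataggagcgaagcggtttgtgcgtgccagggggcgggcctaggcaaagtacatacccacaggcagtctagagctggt
Tnfsf10: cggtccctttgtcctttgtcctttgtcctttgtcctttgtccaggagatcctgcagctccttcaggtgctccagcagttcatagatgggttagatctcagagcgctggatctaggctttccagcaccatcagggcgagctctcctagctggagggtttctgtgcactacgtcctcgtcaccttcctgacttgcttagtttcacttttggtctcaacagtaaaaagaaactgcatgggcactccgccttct
Mlkl: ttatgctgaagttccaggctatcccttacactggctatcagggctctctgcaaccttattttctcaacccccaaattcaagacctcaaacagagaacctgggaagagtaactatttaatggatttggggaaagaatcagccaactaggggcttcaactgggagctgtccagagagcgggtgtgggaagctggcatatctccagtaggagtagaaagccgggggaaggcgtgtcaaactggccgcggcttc
The matches in Casp12 begin 102 and 36 bases before the start, and the match in Fas begins 93 bases before it. All of them read TTCTGGGAA on the gene's strand. Casp12 rose with IFNγ while Fas did not pass the test, so that the same letters stood before a gene with a called response and before one without. A match is a description of letters and not a binding site.

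The libraries held 27440089 to 39251602 counts each, which leaves a floor of 0.0749 to 0.113 CPM (counts relative to library size, scaled with TMM) for a gene with no count, taken as 3 counts and covering counting error only. All 9 genes of a list of known IFNγ targets, among them Irf1 and Tap1, were called higher with treatment, against 2.01% of all genes. The median log2 fold change of these 9 was 4.57. Their summed level was 335 to 450 CPM in untreated adipogenic, 5026 to 8046 CPM in treated and 124 to 162 CPM in osteogenic libraries. The 10 stromal markers summed to 12995 to 23076 CPM in untreated, 6761 to 7456 CPM in treated and 53290 to 77141 CPM in osteogenic libraries, most of it Col1a1 and Col1a2, while Thy1 had at most 1 count and Lepr 15 counts in any library. Of the 9 stromal markers tested, 0 were called lower in treated than in untreated cells, and 5 (Col1a1, Col1a2, Col3a1, Pdgfrb and Cxcl12) where libraries of the same number formed a block, against 4.27% of all genes. In osteogenic against untreated cells Col1a1 and Col1a2 were called higher, as were 1.98% of all genes. The part of these shifts in the results was not tested. Of 12 macrophage and myeloid markers 9 were in the table, with sums of 12.7 to 30.5, 12.5 to 20.2 and 9.73 to 12.9 CPM in the same order, and none of the 5 tested was called. Most of that sum was Cd68 and Cd14, at up to 18.6 and 16.4 CPM in A6 and A5. Lyz2 had at most 97, Fcgr3 25, Csf1r 20 and Laptm5 12 counts in any library, Itgam 5 and Ptprc 4, and Aif1 had none. The part of Cd68- or Cd14-expressing cells in the results was not tested. The lymphocyte list stayed at or under 0.987 CPM and the erythroid list at or under 0.569 CPM. The endothelial list summed to 9.19 to 17.8, 22.2 to 54.4 and 1.67 to 2.63 CPM, mostly Kdr, with Tek at or under 0.536 CPM, while Emcn had no count, Cdh5 at most 2 and Pecam1 at most 6 counts in any library. Of the 2 endothelial genes tested, 1 was called lower in osteogenic than in untreated cells, as were 3.19% of all genes. In treated against osteogenic cells 1 was called higher, beside 9.2% of all genes. In treated against untreated cells 0 were called, and 1 was called higher with the block, beside 6.53% of all genes. The part of Kdr-expressing cells in the results was not tested. In such bulk samples more RNA per cell and more cells that express a gene cannot be told apart.

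**Figure D1:**
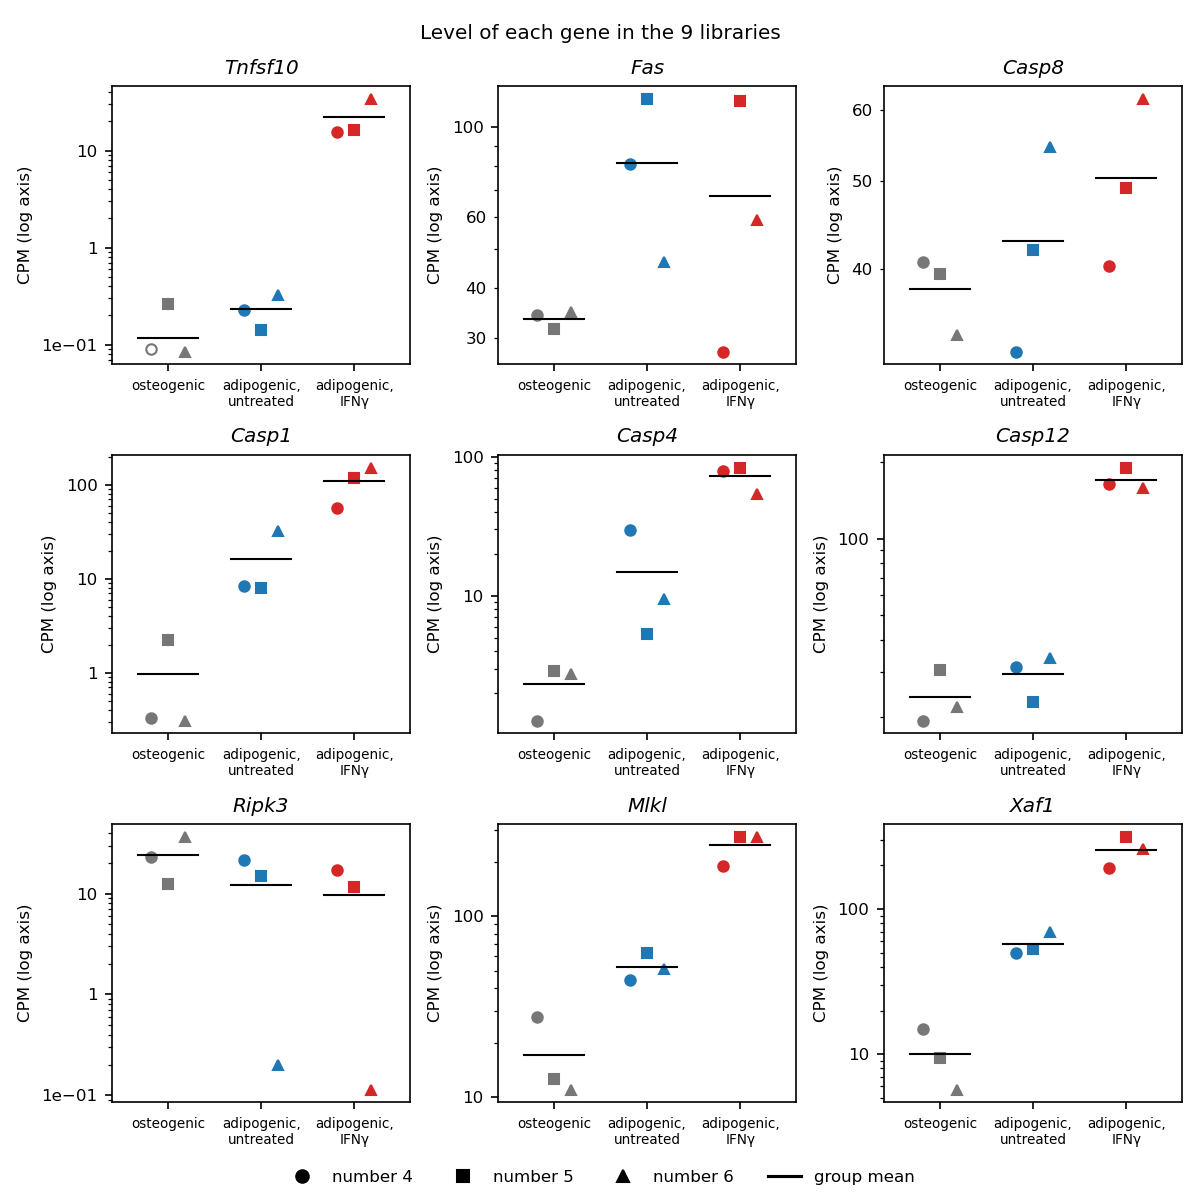
Level of each gene in CPM (log axis) in the 9 libraries, with circles, squares and triangles for numbers 4, 5 and 6 and a line for the mean of the 3 libraries of a group. The open circle for Tnfsf10 is a count of 0 drawn at its floor of 0.0907 CPM. Casp1, Casp4, Mlkl and Xaf1 rise in steps without overlap from osteogenic to untreated adipogenic to treated libraries, and Ripk3 is near 0 in both adipogenic libraries numbered 6.

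Per length, the genes differed widely in level, and their order differed between the groups. In untreated adipogenic cells Fas was highest at 45.4 ± 19.9 (SD, n = 3) RPKM, which is CPM per kilobase of exonic length. Mlkl (22.9 ± 4.11), Casp8 (15.5 ± 3.99), Xaf1 (12.2 ± 2.26) and Casp1 (10.9 ± 9.46 RPKM) followed, and then Casp12 (7.74 ± 1.55), Ripk3 (6.23 ± 5.58) and Casp4 (3.99 ± 3.51 RPKM). Neighbours in this order overlapped in mean ± SD, and Tnfsf10 stood apart as the lowest at 0.0467 ± 0.0184 RPKM. In treated cells Mlkl led at 107 ± 21.1 RPKM, before Casp1 (72.8 ± 32.2), Xaf1 (54.4 ± 13.4), Casp12 (45 ± 4.48) and Fas (37.6 ± 24.9). Casp4 (19.5 ± 4.34) and Casp8 (18.1 ± 3.88) had lower means but overlapped each other and Fas in mean ± SD. Ripk3 (4.93 ± 4.47) and Tnfsf10 (4.45 ± 2.17 RPKM) lay together at the bottom, apart from the rest. In osteogenic cells Fas (18.6 ± 0.948), Casp8 (13.7 ± 1.33) and Ripk3 (12.3 ± 6.18 RPKM) had the highest means. Mlkl (7.44 ± 4.02) and Casp12 (6.29 ± 1.56) followed, and both overlapped Ripk3 in mean ± SD. Xaf1 (2.14 ± 0.990), Casp1 (0.646 ± 0.747), Casp4 (0.623 ± 0.244) and Tnfsf10 (0.0235 ± 0.0272 RPKM) stood at the bottom.

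IFNγ-treated adipogenic progenitors were set first against untreated ones, which asks what the cytokine changes in these cells. Tnfsf10, Casp12, Mlkl and Xaf1 rose, by log2 fold changes of 2.15 to 6.55. Adjusted p values (Benjamini-Hochberg, over all genes tested) are those of the quasi-likelihood F test in edgeR, log2 fold changes carry their SE, and a gene is called where the adjusted p is under 0.05. Of all genes tested, 2.01% were called higher in treated cells, beside 4 of these 9. The median log2 fold change was 2.23 over the 9 genes and −0.02 over all genes. The 9 genes were chosen with earlier results of these data known. Such medians and shares, here and in the other comparisons, are therefore descriptions. Treated and untreated libraries of the same number deviated together from their group means. With these pairs as a replicate block Casp1 and Casp4 were called too, so that 6 of 9 rose, against 6.53% of all genes in that fit. None of the 9 was called lower in that fit, beside 4.27% of all genes. The groups did not overlap for those 6 genes, with every treated library above every untreated one, as in 10.2% of all genes. In a block over all 9 libraries neither Casp1 nor Casp4 was called (adjusted p = 0.105 and 0.114), nor in a fit of only these 6 libraries without a block (0.196 and 0.246). In 7 of 9 genes, those 6 and Casp8, the treated library was above the untreated one of its number in all 3 pairs, as in 26.9% of all genes.

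Tnfsf10 (ENSMUSG00000039304, chromosome 3) codes for TRAIL, a ligand of the TNF family that binds death receptors. Its counts were 8, 5 and 13 in A4, A5 and A6 and 524, 573 and 1211 in A4G, A5G and A6G, which is 0.225, 0.142 and 0.324 CPM against 15.5, 16.2 and 34.4 CPM. The gene was thus near the detection limit in every untreated library and well above it in every treated one, with A6G the highest. In the fit its log2 fold change was 6.55 ± 0.83 (adjusted p = 0.00533). Pooled counts gave a ratio of 94.0, and its exact 95% interval, which takes in counting error alone, ran from 64.0 to 144. The ratios within the pairs numbered 4, 5 and 6 were 68.7, 114 and 106. Without both adipogenic libraries numbered 6, a choice made after the data were seen, the log2 fold change was 6.41 ± 1.09 and the call was lost (adjusted p = 0.0843).

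Fas (ENSMUSG00000024778, chromosome 19), the receptor of Fas ligand, went a different way in each pair. It stood at 81.0, 118 and 46.3 CPM in A4, A5 and A6 and at 27.8, 116 and 58.9 CPM in A4G, A5G and A6G. The groups overlapped, with A4G the lowest of all 9 libraries and A5 and A5G the highest. The treated library was 2.92-fold lower in pair 4, at a ratio of 0.987 in pair 5 and at 1.27 in pair 6. The fitted log2 fold change was −0.27 ± 0.49 (adjusted p = 0.878) without the block and −0.39 ± 0.34 (adjusted p = 0.513) with it. Its direction turned to 0.09 without A5 and to 0.12 without A4G.

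Casp8 (ENSMUSG00000026029, chromosome 1), the initiator caspase of death receptor signalling, had the narrowest spread of the 9 genes in the pairs. The untreated libraries held 32.4, 41.9 and 54.5 CPM and the treated ones 40.2, 49.2 and 61.7 CPM. Each treated library was above its untreated partner, by ratios of 1.24, 1.17 and 1.13, yet the groups overlapped because the numbers differed by more than that. The log2 fold change was 0.23 ± 0.22 (adjusted p = 0.723), and 0.24 ± 0.10 (adjusted p = 0.175) with the block, so that the gene did not pass in either fit.

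**Figure D2:**
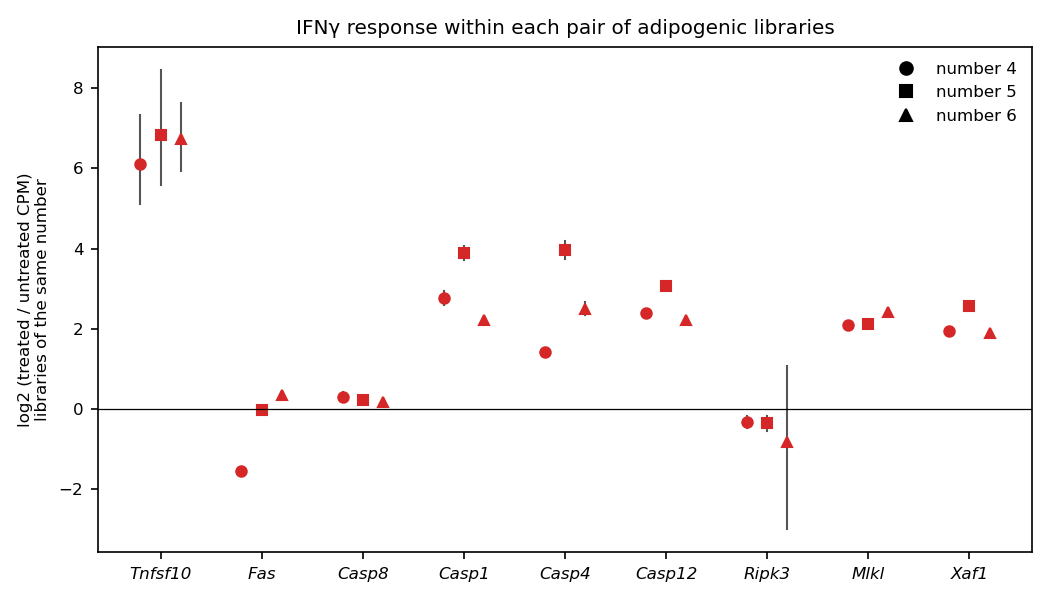
Log2 of the ratio of treated to untreated CPM within each pair of adipogenic libraries of the same number. Vertical lines are exact 95% intervals of the ratio from the 2 counts and cover counting error only. Tnfsf10 lies highest in all 3 pairs with ratios of 68.7 to 114, the ratios of Casp4 range from 2.68 to 15.7, and Fas lies on both sides of 0.

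The inflammatory caspase genes Casp1, Casp4 and Casp12 were all higher in each treated library than in any untreated one. Casp12 (ENSMUSG00000025887, chromosome 9) was at 31.3, 22.7 and 34.0 CPM in A4, A5 and A6 and at 164, 190 and 158 CPM in A4G, A5G and A6G. Both groups were narrow, and A5, the lowest untreated library, had the highest treated partner. The log2 fold change was 2.54 ± 0.22 (adjusted p = 0.000921), with pair ratios of 5.24, 8.35 and 4.65.

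Casp1 (ENSMUSG00000025888), whose protease matures interleukin-1β, was at 8.39, 7.94 and 32.7 CPM in the untreated and at 57.2, 118 and 152 CPM in the treated libraries. A6 was the high untreated library and A4G the low treated one, and the groups did not overlap. The pair ratios were 6.81, 14.8 and 4.66. The log2 fold change of 2.74 ± 0.84 was not called without the block (adjusted p = 0.169) and was called with it, at 2.94 ± 0.62 (adjusted p = 0.0327). DESeq2 (adjusted p = 0.0135) and limma-voom (0.0411) called it without the block.

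Casp4 (ENSMUSG00000033538) was at 29.7, 5.32 and 9.43 CPM in the untreated and at 79.4, 83.4 and 53.7 CPM in the treated libraries. Here A4 was the high untreated library, not A6 as for Casp1. The highest library was 1.55 times the lowest in the treated group and 5.57 times in the untreated one. The pair ratios ran from 2.68 in pair 4 to 15.7 in pair 5, with 5.70 in pair 6. The log2 fold change was 2.29 ± 0.61 (adjusted p = 0.121) without the block and 2.6 ± 0.52 (adjusted p = 0.0280) with it. It was also called by DESeq2 (adjusted p = 0.00316), by limma-voom (0.0304) and by edgeR without A4 (0.0198, log2 fold change 3.29).

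The necroptosis genes Ripk3 and Mlkl, kinase and effector of one pathway, differed. Mlkl (ENSMUSG00000012519, chromosome 8) was at 44.2, 62.8 and 50.9 CPM in the untreated and at 190, 274 and 274 CPM in the treated libraries. The groups were far apart, and the pairs had similar ratios of 4.30, 4.36 and 5.39. Mlkl had a fitted log2 fold change of 2.23 ± 0.36 (adjusted p = 0.0169). The adjusted p was 0.0882, 0.0516 and 0.0775 without A4, A5 and A6, and 0.0550 and 0.0682 without A5G and A6G, with log2 fold changes of 2.12 to 2.37. Without both libraries numbered 6 it was 0.207.

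Ripk3 (ENSMUSG00000022221, chromosome 14) had 769, 521 and 8 counts in A4, A5 and A6 and 587, 411 and 4 counts in A4G, A5G and A6G. That is 21.7, 14.8 and 0.200 CPM against 17.3, 11.6 and 0.114 CPM. The number of the library, not the treatment, separated the values, with both libraries numbered 6 near the floor while Mlkl there was at 50.9 and 274 CPM. The treated library was lower in each pair, at ratios of 0.801, 0.782 and 0.569, the last with an exact 95% interval of 0.125 to 2.12 for counting error. The log2 fold change was −0.34 ± 1.48 (adjusted p = 0.956), −0.39 ± 0.41 (0.604) with the block and −0.33 ± 0.50 (0.931) without both libraries numbered 6. It turned to 0.37 without A4 and to 0.25 without A6G.

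Xaf1 (ENSMUSG00000040483, chromosome 11) codes for a factor that binds XIAP, an inhibitor of caspases. It was at 49.5, 53.1 and 69.4 CPM in the untreated and at 191, 316 and 259 CPM in the treated libraries, which did not overlap. The pair ratios were 3.85, 5.94 and 3.73 and the log2 fold change 2.15 ± 0.35 (adjusted p = 0.0168). The adjusted p was 0.0895, 0.0793 and 0.0536 without A4, A5 and A6, 0.0547 and 0.0642 without A5G and A6G, and 0.149 without both libraries numbered 6, with log2 fold changes of 1.96 to 2.32. Its partner Xiap had a log2 fold change of 0.07 ± 0.12 (adjusted p = 0.860).

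The next comparison set osteogenic against untreated adipogenic progenitors, neither of which had received IFNγ, and it shares the untreated libraries with the comparison above. Casp1, Mlkl and Xaf1 were lower in osteogenic cells and none of the 9 genes was called higher. Of all genes tested, 3.19% were called lower, beside 3 of these 9, and 1.98% were called higher. The median log2 difference was −1.29 over the 9 genes and −0.02 over all. In 5 genes (Casp1, Casp4, Mlkl, Fas and Xaf1) every untreated adipogenic library was above every osteogenic one, as in 15.9% of all genes. The list of IFNγ targets moved the same way without IFNγ, with 5 of its 9 genes called lower in osteogenic cells. Its part in these differences was not tested.

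Xaf1 was at 14.9, 9.44 and 5.70 CPM in O4, O5 and O6, all far under the lowest untreated adipogenic library. The log2 difference was −2.52 ± 0.36 (adjusted p = 0.0111), a mean of 10.0 ± 4.64 against 57.3 ± 10.6 CPM (SD, n = 3). The call was lost without O5 (adjusted p = 0.0551) and without both adipogenic libraries numbered 6 (0.0678). Mlkl was at 27.8, 12.6 and 11 CPM in the osteogenic libraries, of which O4 was the highest as for Xaf1. The log2 difference was −1.62 ± 0.36 (adjusted p = 0.0420). It passed by a small margin: the adjusted p was 0.0727, 0.0936 and 0.106 without A4, A5 and A6, 0.145 and 0.121 without O5 and O6, and 0.144 without both adipogenic libraries numbered 6. It was 0.0508 without the filter on low counts, 0.0555 with a block over all 9 libraries and 0.0731 in a fit of only these 6 libraries.

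Casp1 had 11, 60 and 11 counts in O4, O5 and O6, which is 0.332, 2.26 and 0.311 CPM, with O5 the high one. The log2 difference of −4.13 ± 0.94 (adjusted p = 0.0458) was the largest of the 9 genes. Its size rests on these low counts and ran from −5.65 to −3.12 over the alternative fits. The call was lost without A4, A5 or A6 (adjusted p = 0.0635, 0.0564 and 0.112), without O4 or O6 (0.148 and 0.140) and without both adipogenic libraries numbered 6 (0.145), where the log2 difference was −3.12. It was also lost with limma-voom (0.0677), without the filter on low counts (0.0607) and in a fit of only these 6 libraries (0.0850). Casp4 was at 1.27, 2.90 and 2.77 CPM, also under every adipogenic library, and its log2 difference of −2.68 ± 0.64 missed the threshold (adjusted p = 0.0519). It was called by DESeq2 (adjusted p = 0.000177) and without A5 (0.0316).

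Casp12, the third inflammatory caspase gene, did not separate the untreated groups, with 19.3, 30.5 and 21.8 CPM in O4, O5 and O6 and a log2 difference of −0.30 ± 0.21 (adjusted p = 0.432). Fas was at 34.2, 31.5 and 34.7 CPM, the tightest group of the 9 genes, and below every untreated adipogenic library. Its log2 difference was −1.29 ± 0.50 (adjusted p = 0.171). Casp8 was at 40.7, 39.4 and 33.8 CPM with a log2 difference of −0.18 ± 0.22 (adjusted p = 0.677), which turned to 0.03 without A6. Tnfsf10 had 0, 7 and 3 counts in O4, O5 and O6, as near the floor as in untreated adipogenic cells, with a log2 difference of −1.06 ± 0.86 (adjusted p = 0.500). Ripk3 was at 23.3, 12.6 and 36.8 CPM, present in all 3 osteogenic libraries, with a log2 difference of 0.99 ± 1.49 (adjusted p = 0.739) that was 0.41 ± 0.46 (0.671) without both adipogenic libraries numbered 6.

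**Figure D3:**
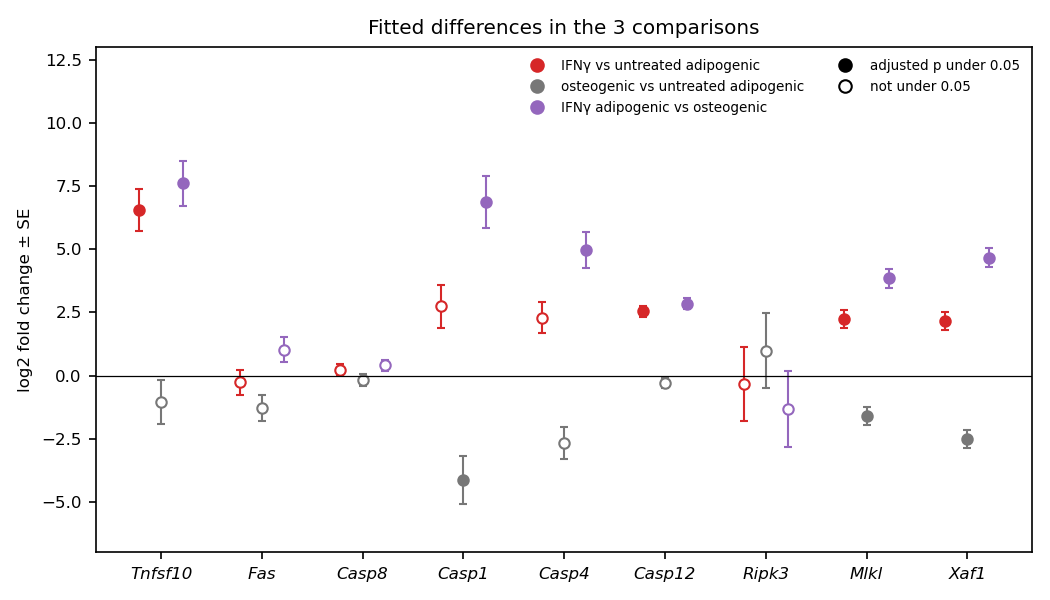
Log2 fold change with its SE for the 9 genes in the 3 comparisons, fitted with edgeR without the block. Filled points have an adjusted p under 0.05. IFNγ-treated cells are above untreated ones in Tnfsf10, Casp12, Mlkl and Xaf1 and above osteogenic ones in these and in Casp1 and Casp4, and the widest bars are those of Ripk3.

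Treated adipogenic cells differed from osteogenic ones both in cell kind and in treatment, and this comparison shares its libraries with both others. Tnfsf10, Casp1, Casp4, Casp12, Mlkl and Xaf1 were called higher in treated adipogenic cells, 6 of 9 beside 9.2% of all genes. No gene of the 9 was called lower, beside 7.52% of all genes. These 6 genes had no overlap between the groups, with every treated library above every osteogenic one, as in 19.7% of all genes. The log2 differences were 7.60 ± 0.90 for Tnfsf10 (adjusted p = 0.00142), 6.87 ± 1.04 for Casp1 (0.00432), 4.97 ± 0.70 for Casp4 (0.00308), 4.67 ± 0.39 for Xaf1 (0.000253), 3.84 ± 0.39 for Mlkl (0.000622) and 2.84 ± 0.23 for Casp12 (0.000181). The pooled counts of Tnfsf10, 2308 against 10, gave a ratio of 210.0 with an exact 95% interval of 114 to 438. Fas (1.02 ± 0.50, adjusted p = 0.202), Casp8 (0.41 ± 0.22, 0.250) and Ripk3 (−1.32 ± 1.5, 0.594) were not called. All 6 calls held in each of the 13 alternative fits.

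In Casp1, Casp4, Mlkl and Xaf1 the 3 groups formed a ladder, with every osteogenic library below every untreated adipogenic one and every untreated one below every treated one. This held for 4 of the 9 genes and for 2.43% of all genes. Tnfsf10 and Casp12 lacked the lower step, Fas lacked the upper one, and Casp8 and Ripk3 lacked both.

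Casp1, Casp4 and Casp12 lie next to each other on chromosome 9 in GENCODE M21 (GRCm38), and none of their neighbours was called in the IFNγ comparison. In genome order the protein-coding genes are Msantd4, Gria4, Casp1, Casp4, Casp12, Pdgfd and Ddi1. Msantd4 was at 61 to 72.4 CPM in untreated and 61.8 to 73.1 CPM in treated adipogenic libraries, a log2 fold change of −0.01 ± 0.15 (adjusted p = 0.990) in the table's row 8430410K20Rik, its older name. Gria4, a glutamate receptor subunit next to Casp1, was at 1.30, 7.97 and 1.47 CPM in the untreated and 0.266, 1.24 and 0.483 CPM in the treated libraries, which is the opposite direction, and was not called (log2 fold change −2.42 ± 1.19, adjusted p = 0.420). Pdgfd, a platelet-derived growth factor next to Casp12, had 12.5, 42.5 and 29.2 CPM against 22.5, 50.8 and 37.3 CPM (log2 fold change 0.39 ± 0.49, adjusted p = 0.797). Ddi1 had no count in any library. In osteogenic against untreated cells Casp1 was called lower, Casp4 (adjusted p = 0.0519) and Casp12 (0.432) were not, and a difference between these genes was not tested. No other gene of M21 overlapped the exons of any of the 9 genes. How the counting treated reads shared by similar caspase genes is not given in the sources used here.

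**Figure D4:**
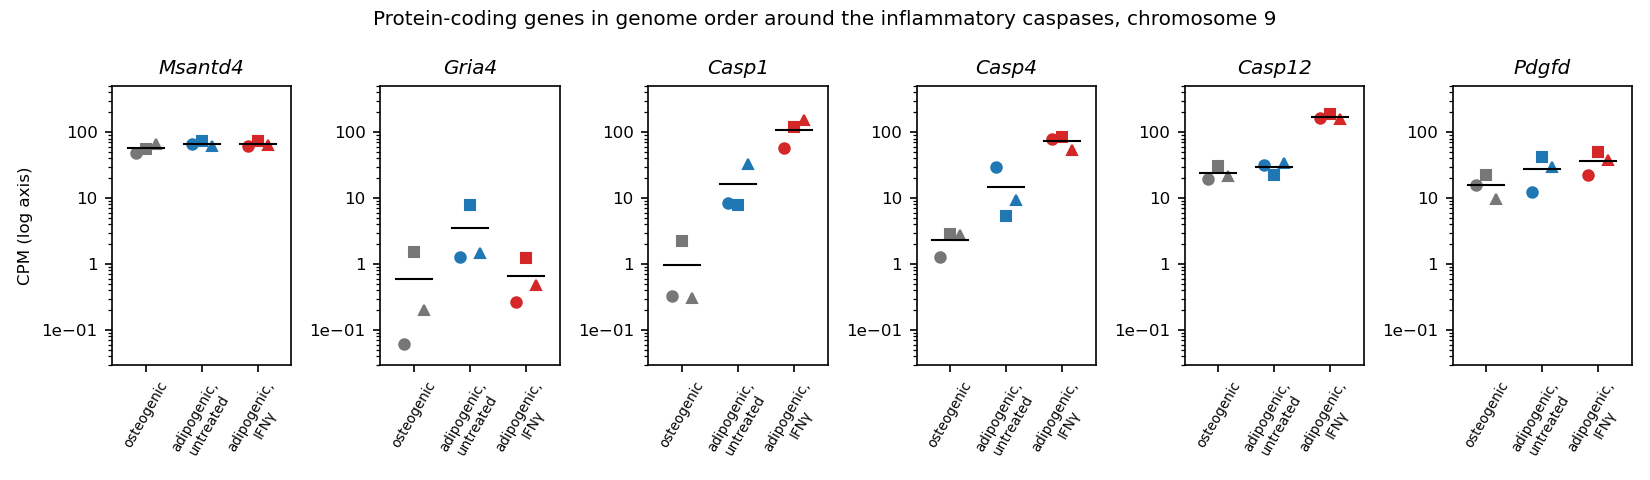
CPM (log axis) of the protein-coding genes around the inflammatory caspases in genome order, with circles, squares and triangles for numbers 4, 5 and 6 and a line for the group mean. Casp1, Casp4 and Casp12 are higher in all treated libraries than in all untreated ones, while Msantd4 stays between 48.2 and 73.1 CPM in all 9 libraries and Gria4 is lower in the treated ones.

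The adjacent gene Nfatc4 was low in the same adipogenic libraries as Ripk3. Nfatc4, on chromosome 14 and a transcription factor of the NFAT family, was at 13.6, 12.6 and 1.92 CPM in A4, A5 and A6 and at 7.27, 4.62 and 0.795 CPM in the treated ones, with 56.9, 151 and 109 CPM in O4, O5 and O6. Nynrin, the gene after it, had 15.4, 21.8 and 18.4 CPM in untreated and 7.71, 13.3 and 6.73 CPM in treated libraries. Adcy4 and Ltb4r1, on the other side of Ripk3, were at or under 0.929 and 1.45 CPM in every library. Ripk3 was 1 of 4 genes of 15098 for which both adipogenic libraries numbered 6 were more than 10-fold below each of the other 4 adipogenic libraries, which all held 10 CPM or more. The same rule, set after the Ripk3 values were seen, took 6 genes for number 4 and 2 genes for number 5.

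Among the other genes of the death pathways, Zbp1 and Tlr3 passed the test of IFNγ-treated against untreated cells. Of 60 listed genes 59 were in the table and 48 were tested, of which 2 rose (4.17%, beside 2.01% of all genes). Zbp1, a sensor of Z-form nucleic acids that activates RIPK3, was at 8.73, 1.76 and 11.5 CPM in A4, A5 and A6 and at 531, 573 and 528 CPM in the treated libraries (log2 fold change 6.21 ± 0.65, adjusted p = 0.00204). Tlr3, a receptor of double-stranded RNA that can feed into necroptosis, was at 11.9, 10.4 and 16.2 against 49.6, 100.8 and 92.4 CPM (2.66 ± 0.38, adjusted p = 0.00869). The groups did not overlap in either gene, and Zbp1 had the largest log2 fold change of the listed genes tested.

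By list, and with Ripk1, Cyld, Fadd, Cflar, Birc2 and Birc3 counted in more than 1 of them, 0 of 16 tested genes of death receptor signalling passed with IFNγ, 2 of 10 of necroptosis, 0 of 4 other caspases, 0 of 7 of the inflammasome and pyroptosis, 0 of 10 of caspase activation and execution and 0 of 7 inhibitors of apoptosis. The medians ran from −0.05 in caspase activation and execution to 0.36 in the inflammasome list. With the replicate block the counts were 3, 4, 1, 0, 0 and 1 in the same order, in a fit that called 6.53% of all genes higher. None of the listed genes was called lower in that fit, beside 4.27% of all genes. The added genes were Ripk1 (log2 fold change 0.55 ± 0.08, adjusted p = 0.00798), Bid (0.53 ± 0.09, 0.0157), Tnfrsf1b (0.52 ± 0.12, 0.0391), Peli1 (0.47 ± 0.09, 0.0261), Casp2 (0.63 ± 0.10, 0.0130) and Birc5 (1.54 ± 0.28, 0.0215). RIPK1 is the kinase that can activate RIPK3, and BID links caspase-8 to mitochondria. The TRAIL receptor gene Tnfrsf10b was at 83.7, 199.7 and 107.6 CPM in untreated and at 42.7, 147 and 84.3 CPM in treated libraries, lower in each pair but not called with the block (−0.59 ± 0.16, adjusted p = 0.0642).

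Several partners of these genes had almost no counts. Fasl, the ligand of Fas, had at most 1 count in any library, and Tnf had 1 count in A5G and none elsewhere. Pycard, the adaptor that links inflammasome sensors to caspase-1, had 8, 0 and 1 counts in A4, A5 and A6, 24, 1 and 1 in the treated and 1, 0 and 0 in the osteogenic libraries. Nlrp3 had at most 5 counts and Nlrc4 at most 2. These genes were too low to be tested. Aim2, a sensor gene of the inflammasome list, was at 8.42, 0.968 and 0.424 CPM in untreated libraries. It was at 10.7, 2.06 and 1.05 CPM in treated libraries, higher in each pair, and was not called without or with the block. Gsdmd, the substrate of both caspase-1 and caspase-4 in pyroptosis, was at 20.7, 4.81 and 25.9 CPM in untreated and at 45.4, 36.8 and 68.0 CPM in treated libraries without overlap, but was not called (log2 fold change 1.54 ± 0.81, adjusted p = 0.457, and 0.195 with the block).

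**Figure D5:**
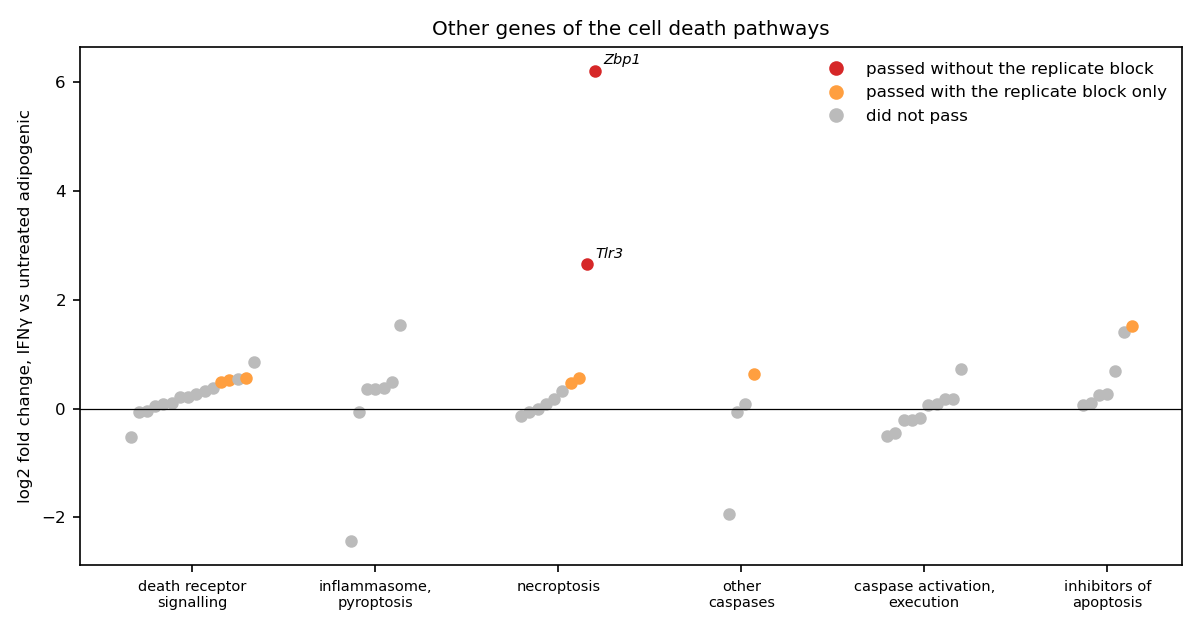
Log2 fold change of IFNγ-treated against untreated adipogenic cells, fitted without the block, for the tested genes of 6 pathway lists, each point 1 gene. Zbp1 and Tlr3 passed without the block, orange points passed only with it, and a gene in 2 lists is drawn in both.

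In osteogenic against untreated adipogenic cells 2 of the 48 listed genes tested were called, both lower, as were 3.19% of all genes. They were Zbp1 (log2 difference −4.20 ± 0.67, adjusted p = 0.0157) and Bid (−0.99 ± 0.16, 0.0172). In treated adipogenic against osteogenic cells 6 of 16 tested genes of the death receptor signalling list were higher, beside 9.2% of all genes. That list holds adaptors, kinases and inhibitors as well as receptors. Those with the smallest adjusted p were Bid (1.52 ± 0.17, adjusted p = 0.000873), Ripk1 (1.01 ± 0.12, 0.00160), Tnfrsf1b (0.91 ± 0.18, 0.0124) and Tnfrsf22 (2.17 ± 0.47, 0.0185). Of the other lists, 4 of 10 necroptosis genes were higher. Zbp1 reached 544 ± 24.9 CPM in treated cells against 0.402 ± 0.141 CPM in osteogenic ones (SD, n = 3). Ninj1, Rock1, Naip2 and Naip5 were also higher, and Casp14 and Dffa lower, as were 7.52% of all genes.

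The genes whose profiles over the 9 libraries were nearest to each of the 9 were found among 11387 other tested genes with a mean of at least 1 CPM by the root mean square difference of centred log2 CPM. Casp12 was nearest to Tapbp (0.246), Psme1 (0.260) and Ctrl (0.292), and Mlkl to Tap1 (0.268), Trim21 (0.342) and Tlr3 (0.373). Xaf1 was nearest to Oas1b (0.258), Stat2 (0.299) and Rnf213 (0.349). Casp4 was nearest to Ifit2 (0.549), Casp1 to Mx1 (0.756) and Tnfsf10 to Gbp2 (0.634). Casp8, whose profile was flat, was nearest to Cabin1 (0.0918), and Fas to Hpx (0.287), Mapkapk3 (0.303) and Tnfaip3 (0.324). The nearest gene to Ripk3 was Hsf4, at a distance of 0.766. Among the 9 genes, Mlkl and Xaf1 were closest to each other at 0.453, before Casp8 and Fas at 0.762 and Casp12 and Mlkl at 0.812. Casp1 and Ripk3 were farthest apart at 5.21. These distances rest on 9 libraries in 3 groups and are descriptions.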

How the data were processed

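The deposited values were read counts per Ensembl gene, whole numbers in 1 column per library, with gene names and exonic lengths beside them. Per the labels' protocols, mRNA was enriched on poly-dT, a kit that keeps strand was used, and each lane held all libraries in one pool for single reads. CASAVA 1.8.0, bedtools 2.11 and build mm9 are named per the submitters' processing notes. Aligner, counter and the counter's strand setting were not given in the sources used here. Groups were read from the titles together with the series design.

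In R 4.3.3, edgeR 4.0.16 kept 15098 of 24186 genes (filterByExpr by group) and scaled the libraries with TMM. All 9 libraries entered 1 robust quasi-likelihood model by group, with two-sided tests, Benjamini-Hochberg adjustment over all genes tested and a threshold of 0.05. The common biological coefficient of variation was 0.378. The scripts were tested on simulated data. With 3 libraries in each group, the smallest two-sided p of an exact permutation test is 0.1. Alternatives were DESeq2 1.42.0, voom of limma 3.58.1, upper-quartile scaling, no filter, fewer libraries and replicate blocks. RPKM used the deposited exonic lengths.

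Deviations from the group means correlated at 0.778, 0.769 and 0.779 between treated and untreated libraries of numbers 4, 5 and 6, so these numbers were taken to pair the adipogenic libraries. Osteogenic libraries correlated with the same number of the other groups at −0.0546 to 0.0552 and were not paired. No pair of replicates agreed within sampling noise. All 9 genes are named in each comparison, with up to 4 genes of a pathway list per comparison by smallest adjusted p. The genes and lists were chosen with earlier results of these data known, and a few listed genes are not reported here and are left out of the lists' counts. Reads carried no molecular identifiers and are not independent molecules, so floors and intervals hold for counting error alone. Neighbouring genes are those of GENCODE M21 (GRCm38), and coordinates of promoters are RefSeq's on GRCm38.p6, not on the build of the counts.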

Additional observations from a re-analysis of the deposited data

How the results depend on the processing

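Over the alternatives, 311 of 359 results for single genes kept their direction and their side of the threshold, 33 lost a call, 9 gained one and 6 changed sign. None of the sign changes was in a called gene, and they were those of Fas without A5 or A4G and of Ripk3 without A4 or A6G in treated against untreated cells, and of Casp8 in osteogenic against untreated cells without A6 (0.0319) or without both adipogenic libraries numbered 6 (0.0317). With 1 library left out the log2 values ran from −0.93 to 0.12 for Fas, from −1.03 to 0.37 for Ripk3 and from −0.34 to 0.0319 for Casp8. In treated against untreated cells 341 genes were called, against 1068 with DESeq2, 178 in a fit of only these 6 libraries, 1631 where the adipogenic pairs formed a replicate block, 194 to 278 with 1 library left out and 123 without both libraries numbered 6. Of the 9 genes, 4 were called, 2 to 4 with 1 library left out and 1 without both libraries numbered 6. In osteogenic against untreated cells 780 genes were called, against 2226 with DESeq2, 1244 with a replicate block over all 9 libraries, 159 to 475 with 1 library left out and 178 without both adipogenic libraries numbered 6. Of the 9 genes, 3 were called, 1 without the filter, 1 of 8 tested in the fit of the 6 libraries, 1 to 2 with 1 library left out and 0 without both libraries numbered 6. In treated adipogenic against osteogenic cells 2525 genes were called, against 3830 with DESeq2, 1312 to 1979 with 1 library left out and 1349 without both libraries numbered 6, and 6 of the 9 genes in each. Fits with fewer libraries have fewer residual degrees of freedom; the cause of the other changes was not tested. The replicate block of the adipogenic pairs changed the call of Casp1 and Casp4 and of no other gene of the 9. The depth limits Tnfsf10 in untreated and osteogenic libraries, Ripk3 in the adipogenic libraries numbered 6 and Casp1 in O4 and O6. At most 13 counts lie behind a value there.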
